A study of Mus musculus with 8 samples.

Results

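Genes for neuropeptide receptors were followed in nuclear RNA of cortical GABAergic neurons, the inhibitory neurons of the cortex, from hypothyroid juvenile mice with and without thyroid hormone (TH). The members were the 38 listed receptor symbols among the 55341 gene rows of the count files, and all 38 symbols were present. The PTU group (mice 9 to 12, n = 4) was made hypothyroid with propylthiouracil, which stops the thyroid from making its hormones and reached the pups through their gestating mothers. Mice 13 to 16 (n = 4) formed the PTU+TH group, which had the same hypothyroidism and received TH by intraperitoneal injection 24 h before brain collection. Every mouse carried a Cre-dependent reporter that placed a fluorescent protein in the nuclei of GABAergic neurons, and the Cre driver, the age in days, the TH dose and the sex are not given in the labels. The design holds no group with normal thyroid function. Nuclei of 1 cortex were sorted for each library, so all classes of GABAergic neurons were pooled.

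Neuropeptides are short signalling peptides released from dense-core vesicles, and nearly all act on G protein-coupled receptors. Receptors that couple to Gi or Go, such as those for somatostatin, neuropeptide Y and opioids, usually dampen the cell, whereas those that couple to Gq or Gs, such as the receptors for cholecystokinin, neurotensin, orexin, VIP and PACAP, usually excite it or raise cAMP. In the cortex most of the peptides come from GABAergic neurons themselves, where somatostatin, VIP, neuropeptide Y and cholecystokinin also serve as class markers. The receptors thus set which neighbouring cells can respond to a local release.

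The libraries held 21762810 to 29084071 counts, and the totals of the groups overlapped (exact permutation test, two-sided, p = 1, n = 4 each; the smallest p that 4 against 4 allows is 0.0286). The GABAergic genes Gad1 and Gad2 stood at 389 to 546 and 392 to 481 CPM (counts scaled by the size of the library and its TMM factor) over the 8 libraries. The 10 excitatory neuron markers were all tested, with summed levels of 438 to 524 CPM in PTU and 437 to 498 CPM in PTU+TH, and 0 were called. The TH-responsive gene Hr, used as a check of the injection, lay at 1.05 to 2.22 CPM in PTU and 24.7 to 28.5 CPM in PTU+TH, and Klf9 and Dbp were called higher as well. Y-linked genes had 0 counts in PTU+TH mice 15 and 16 and 7960 or more in each of the other 6 libraries. Sex, as read from these genes, was thus unbalanced between the groups, and it was not a term in the main fit. Mice 9 and 10 both lay above mice 11 and 12 in 16 of the 30 receptor genes tested, a pattern found in 27.8% of all tested genes, and the opposite order held in 5 of the 30 and in 27.7% of all tested genes. The labels name no batch that matches these pairs of mice. The values are of bulk nuclei, where fewer cells of a type and less RNA per cell cannot be told apart.

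A receptor was taken as measured when it passed the filter on low counts (edgeR filterByExpr), which kept 30 of the 38. Of these, 15 averaged 10 CPM or more, 13 lay between 1 and 10 CPM and 2 (Sstr5 and Galr2) lay below 1 CPM. Genes differ in length, so levels between genes are given as CPM per kb of gene body that no other gene shares (whole-body scale), averaged over all 8 libraries with the SD. On that scale the nociceptin receptor Oprl1 came first with 8.52 ± 1.34, followed by the somatostatin receptors Sstr4 (6.29 ± 1.52) and Sstr1 (5.48 ± 1.30), the PACAP receptor Adcyap1r1 (4.94 ± 0.28) and the delta opioid receptor Oprd1 (2.84 ± 0.54). The range over mice of Oprl1 overlapped those of Sstr4 and Sstr1, and these overlapped that of Adcyap1r1, so the order of these 4 is not fully separated by the spread. The order changed with the length used, and where introns were counted the exon scale is raised for genes with long introns. Per kb of exon, Adcyap1r1 led with 37.0 CPM, followed by Oprd1 with 23.9, Oprl1 with 13.6 and the cholecystokinin B receptor Cckbr with 10.9. Sstr1 and Sstr4 came sixth and seventh there, with 7.16 and 6.29 CPM per kb.

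**Figure D1:**
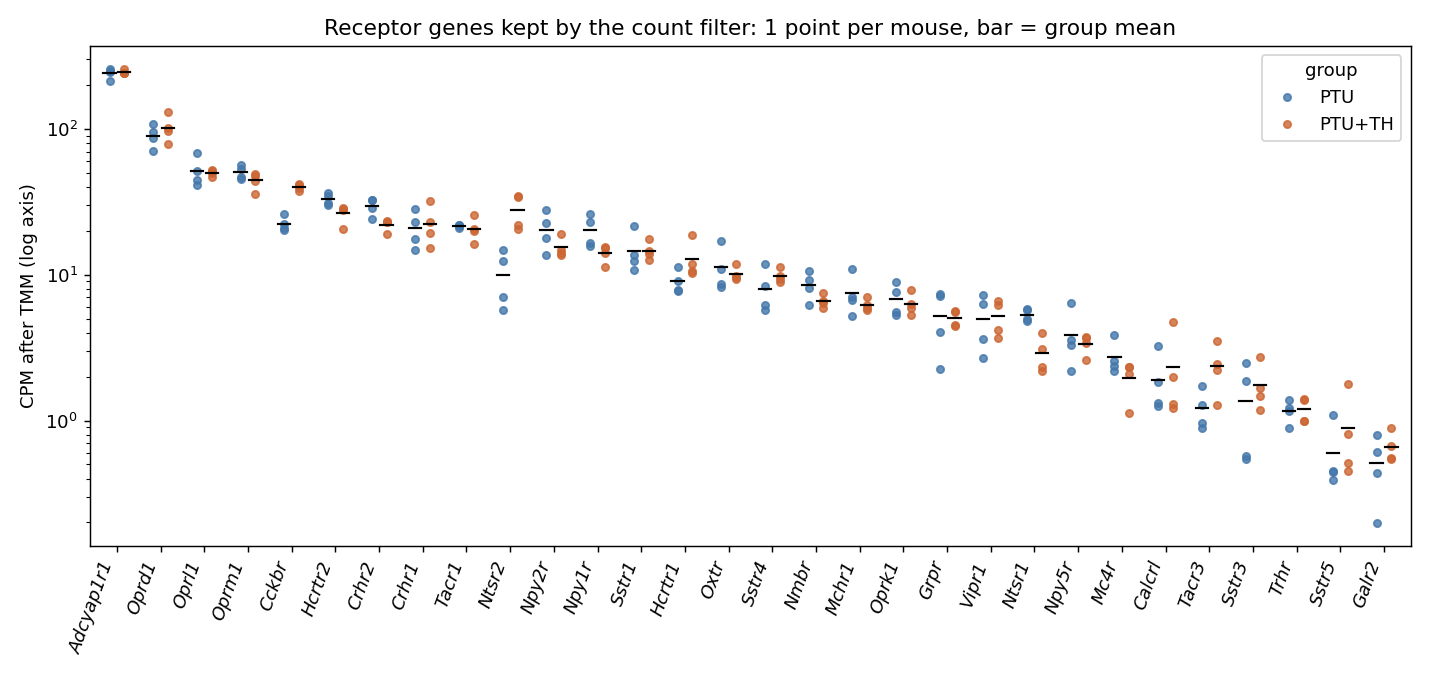
CPM of the 30 receptor genes kept by the count filter, on a log axis, with 1 point per mouse and a bar at each group mean (PTU left, PTU+TH right, 4 mice each). Adcyap1r1 averages 242 and 246 CPM in the 2 groups, and Galr2 lies below 1 CPM in every mouse.

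Between the groups, 2 of the 30 tested receptors were called, which here means an edgeR quasi-likelihood p below 0.05 after adjustment over every gene tested. They were Cckbr and the neurotensin receptor Ntsr2. Both rose in PTU+TH, and 0 fell. Over all 17355 genes tested, 2.12% were called, 1.49% as higher and 0.634% as lower. At an unadjusted p under 0.05 there were 8 receptors, 4 with higher and 4 with lower values in PTU+TH, against 12.8% of all tested genes (6.59% higher and 6.17% lower). The log2 fold changes of PTU+TH over PTU ran from -0.88 (Ntsr1) to 1.46 (Ntsr2), 14 above and 16 below 0. Their median was -0.02, beside a median of -0.01 over all tested genes. The groups did not overlap in 6 receptors, against 8.71% of all tested genes. In 2 of them all PTU+TH mice lay above all PTU mice (4.68% of all tested genes) and in 4 all lay below (4.03%). These 4 were Ntsr1, Crhr2, Npy1r and Hcrtr2, none of which was called.

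Of the 17 tested markers of interneuron classes, 2 were called, against 2.12% of all tested genes. The 4 VIP class genes all had log2 fold changes below 0, and their summed level was 199.7 to 281 CPM in PTU and 178 to 197 CPM in PTU+TH, without overlap. Of these, Htr3a, a serotonin receptor gene, fell (edgeR adjusted p = 0.0344, log2 fold change -1.11). The 4 LAMP5 class genes also all lay below 0, with sums of 1074 to 1267 CPM against 888 to 1063 CPM and 0 called. The 5 PV class genes had 3 values above and 2 below 0, and Syt2, a synaptotagmin gene, rose (edgeR adjusted p = 0.00603, log2 fold change 1.15). The 4 SST class genes had 1 above and 3 below, with 0 called. The part of these class markers in the receptor values was not tested.

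**Figure D2:**
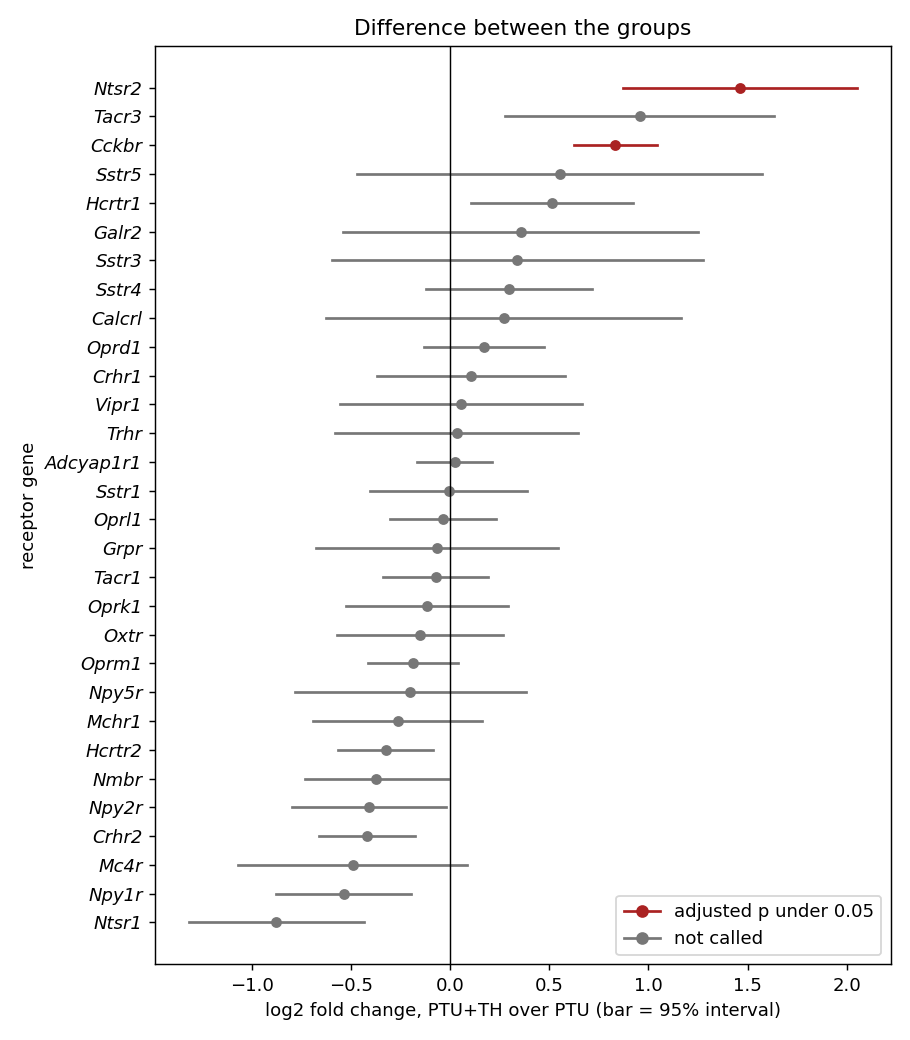
Log2 fold change of PTU+TH over PTU for the 30 tested receptor genes, with 95% intervals from the fitted standard errors and a normal quantile (horizontal axis), sorted by size. Such intervals are narrower than the edgeR test implies. The called genes Ntsr2 and Cckbr are red, and their intervals lie above 0. So do those of the uncalled Tacr3 and Hcrtr1. The intervals of the uncalled Ntsr1, Npy1r, Crhr2, Hcrtr2, Npy2r and Nmbr lie below 0.

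The bases before the starts of Cckbr, Ntsr2 and Ntsr1 are shown because these are the 2 called receptors and the one with the most negative log2 fold change. They are RefSeq promoter sequences on GRCm38.p6, plus strand, 5′ to 3′, and end just before the annotated gene start. Cckbr spans chr7:105425481-105425730, Ntsr2 chr12:16653220-16653381 and Ntsr1 chr2:180499726-180499975. Capitals would mark a match to any of 5 motifs, searched on both strands.
Cckbr: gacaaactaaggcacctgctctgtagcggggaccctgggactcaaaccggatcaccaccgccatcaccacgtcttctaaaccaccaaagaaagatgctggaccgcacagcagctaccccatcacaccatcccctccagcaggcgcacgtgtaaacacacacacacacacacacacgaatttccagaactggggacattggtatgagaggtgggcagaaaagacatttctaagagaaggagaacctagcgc
Ntsr2: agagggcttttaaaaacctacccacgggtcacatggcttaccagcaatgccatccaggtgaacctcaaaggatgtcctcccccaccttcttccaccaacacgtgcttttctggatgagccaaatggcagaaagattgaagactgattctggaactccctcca
Ntsr1: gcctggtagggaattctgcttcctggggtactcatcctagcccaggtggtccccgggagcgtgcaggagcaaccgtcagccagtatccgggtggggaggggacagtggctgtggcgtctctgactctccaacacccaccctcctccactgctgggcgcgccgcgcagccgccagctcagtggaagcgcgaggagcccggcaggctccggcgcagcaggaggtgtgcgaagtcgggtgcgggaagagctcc

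The motifs were AGGTCA, the half-site that TH receptors and other nuclear receptors can bind, its direct repeat with 4 bases between the copies, the cAMP response element TGACGTCA, the GC box GGGCGG and the TATA box TATAAA. None of these letters occurred in the 3 sequences shown. RefSeq gave 37 promoters for 29 of the 38 members. Among these 37, the 250 bases before the start held AGGTCA in 3 (Hcrtr1, Hcrtr2 and Oxtr), against 14.0% of the 32851 promoters of all genes. The direct repeat, which contains the half-site, was in 0 of the 37 and in 0.0152% of all promoters. TGACGTCA was in 1 (Sstr2), GGGCGG in 10 and TATAAA in 4, against 1.55%, 32.7% and 12.4% of all promoters.

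Cckbr encodes the cholecystokinin B receptor, the main receptor for cholecystokinin in the brain, which couples to Gq. It lies on chromosome 7 at 105425731 to 105470898 (GRCm38, plus strand) and shares no base with another gene. Its level was 26.2, 21.1, 22.2 and 20.3 CPM in PTU mice 9 to 12 and 39.3, 41.6, 41.6 and 37.5 CPM in PTU+TH mice 13 to 16. The groups did not overlap, and the spread within each was small beside the gap between them. The means were 22.5 ± 2.64 and 40.0 ± 1.97 CPM (SD, n = 4 each), a rise of 1.78-fold (edgeR adjusted p = 0.00108, log2 fold change 0.83 with SE 0.11), higher in 4 of 4 mice. The call held under all 19 alternatives run, with log2 fold changes from 0.79 to 0.92 and edgeR adjusted p-values up to 0.0401. Cckar, the other cholecystokinin receptor and mostly a receptor of the gut, had 2 counts in mouse 14 and 0 in the other 7 libraries, where a count of 0 allows up to 0.109 to 0.148 CPM (counting error only). The gene of the ligand, Cck, lay at 56.0, 34.0, 24.4 and 25.8 CPM in PTU and 22.3, 19.7, 30.7 and 24.7 CPM in PTU+TH. The Cck groups overlapped, with mouse 9 far above the rest, and the gene was not called (edgeR adjusted p = 0.425, log2 fold change -0.53).

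Of the 2 neurotensin receptors, Ntsr2 rose, and Ntsr1 had lower values in PTU+TH without a call. Ntsr2 encodes a low-affinity neurotensin receptor that in brain is known mostly from astrocytes, and Ntsr1 encodes the high-affinity receptor, known in cortex as a marker of layer 6 excitatory neurons. Ntsr2 (chromosome 12, 16653382 to 16660227) was found at 12.5, 14.8, 5.74 and 7.09 CPM in PTU mice 9 to 12 against 34.0, 20.5, 34.8 and 22.0 CPM in PTU+TH mice 13 to 16. Every PTU+TH mouse lay above every PTU mouse, and the values within each group were widely spread. The means were 10.0 ± 4.32 and 27.8 ± 7.63 CPM (SD, n = 4 each), a rise of 2.75-fold (edgeR adjusted p = 0.0358, log2 fold change 1.46 with SE 0.30). The call of Ntsr2 was lost without PTU mouse 9, 11 or 12 and without PTU+TH mouse 13, 15 or 16 (edgeR adjusted p = 0.056 to 0.0929), and also with library totals alone (0.0734), without a count filter (0.153) and in a fit of mice 9 to 14 only, those with Y-linked counts (0.192). The log2 fold change was 1.42, 1.46 and 1.43 in these last 3 fits and 1.27 to 1.72 over the fits without 1 mouse.

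Within each group, the mice with high Ntsr2 were also those with high levels of many genes of other cell types, astrocyte genes among them. The 5 tested astrocyte genes were all highest in mice 13 and 15 among the PTU+TH libraries, as Ntsr2 was, and 4 of them (all but Aldh1l1) were highest in mice 9 and 10 among the PTU libraries, as Ntsr2 was. The water channel gene Aqp4 lay at 9.91, 11.9, 3.61 and 4.37 CPM in PTU and 9.28, 4.61, 14.2 and 5.09 CPM in PTU+TH. The connexin gene Gja1 lay at 17.3, 22.4, 7.72 and 5.99 CPM in PTU and 19.3, 9.42, 22.6 and 13.5 CPM in PTU+TH. Both genes overlapped between the groups. The summed astrocyte list ran from 125 to 241 CPM in PTU and from 127 to 366 CPM in PTU+TH, and 0 of its 5 tested genes were called. Gfap was listed at 0 in all libraries and lies wholly inside another annotated gene. The 4 tested microglial genes all had log2 fold changes above 0, from 0.40 to 1.09, with 0 called. Their sums were 8.88 to 13.4 CPM in PTU and 12.9 to 26.8 CPM in PTU+TH. Above 0 were also 4 of 6 oligodendrocyte and precursor genes, 1 of 6 endothelial genes and 2 of 5 pericyte and mural genes. With the mean of the astrocyte list as a term in the fit, an alternative added after the values were seen, Ntsr2 had a log2 fold change of 1.40 (edgeR adjusted p = 0.000424). With the excitatory list as the term it was 1.44 (edgeR adjusted p = 0.00118). Over all tested genes the calls rose from 368 to 489 with the astrocyte term and to 570 with the excitatory term. The part of astrocyte nuclei in the Ntsr2 values was not tested. Of the 10 excitatory genes, 4 were also highest in mice 9 and 10 and in mice 13 and 15, and so was the mean log2 CPM of the list, at 3.94, 3.56, 3.25 and 2.73 in PTU and 3.57, 2.89, 3.93 and 3.28 in PTU+TH. The summed CPM of the list did not have that order in PTU. The same order of mice held in 4 of 6 oligodendrocyte and precursor genes, 3 of 5 pericyte and mural genes and 3 of 6 endothelial genes. Further lists with it were striatal GABAergic (3 of 6), LAMP5 class (2 of 4), receptor accessory proteins (3 of 6) and G protein coupling (3 of 17). It held in 0 of 4 microglial, 0 of 5 GABAergic, 0 of 5 PV, 0 of 4 SST and 0 of 4 VIP class genes. The share of all tested genes with this order in both groups was not computed. Its PTU part alone, mice 9 and 10 above mice 11 and 12, held in 27.8% of them. Slc17a7, the vesicular glutamate transporter gene shown in the plot of astrocyte genes, is 1 of the 4 excitatory genes with this order, with 50.7, 51.4, 22.8 and 15.8 CPM in PTU and 44.0, 23.9, 57.9 and 28.0 CPM in PTU+TH.

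**Figure D3:**
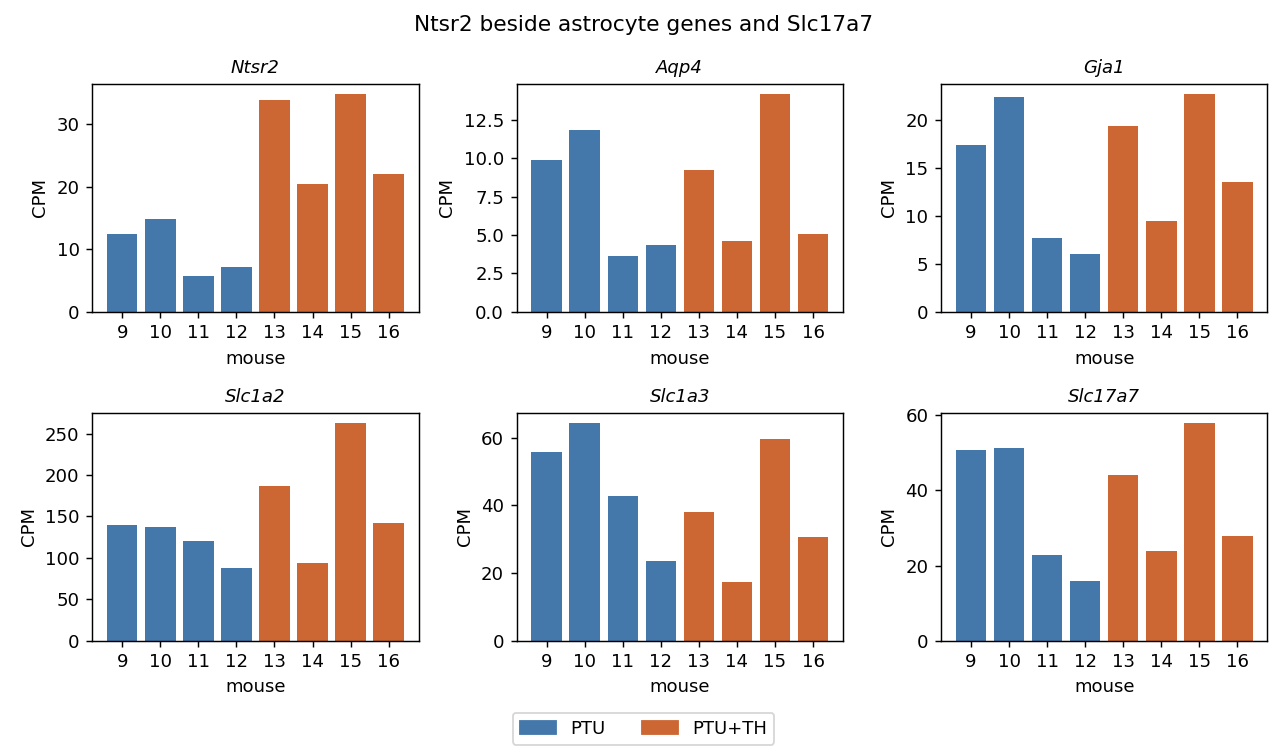
CPM per mouse of Ntsr2, of the astrocyte genes Aqp4, Gja1, Slc1a2 and Slc1a3 and of the excitatory gene Slc17a7 (bars from 0, PTU mice 9 to 12 blue, PTU+TH mice 13 to 16 orange). Within each group the mice with high Ntsr2 are those with high Aqp4, and Ntsr2 separates the groups while the other 5 genes overlap.

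Ntsr1 (chromosome 2, 180499976 to 180544980) was measured at 5.79, 4.97, 5.69 and 4.81 CPM in PTU against 3.96, 2.20, 3.09 and 2.33 CPM in PTU+TH. All PTU+TH values lay below all PTU values, with means of 5.32 ± 0.50 and 2.9 ± 0.81 CPM (SD, n = 4 each). The difference had the most negative log2 fold change of the tested receptors (-0.88, SE 0.23) without being called (edgeR adjusted p = 0.0702). It passed with DESeq2 (adjusted p = 0.0071), with the excitatory or the astrocyte list as a term (edgeR adjusted p = 0.0331 and 0.0368) and without PTU+TH mouse 13 (0.0464). The 10 excitatory genes had 0 called, with 7 log2 fold changes above and 3 below 0, from -0.52 (Fezf2) to 0.17 (Tbr1). The neurotensin gene Nts itself was near the limit of the libraries, at 0.22 to 1.2 CPM in all 8.

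**Figure D4:**
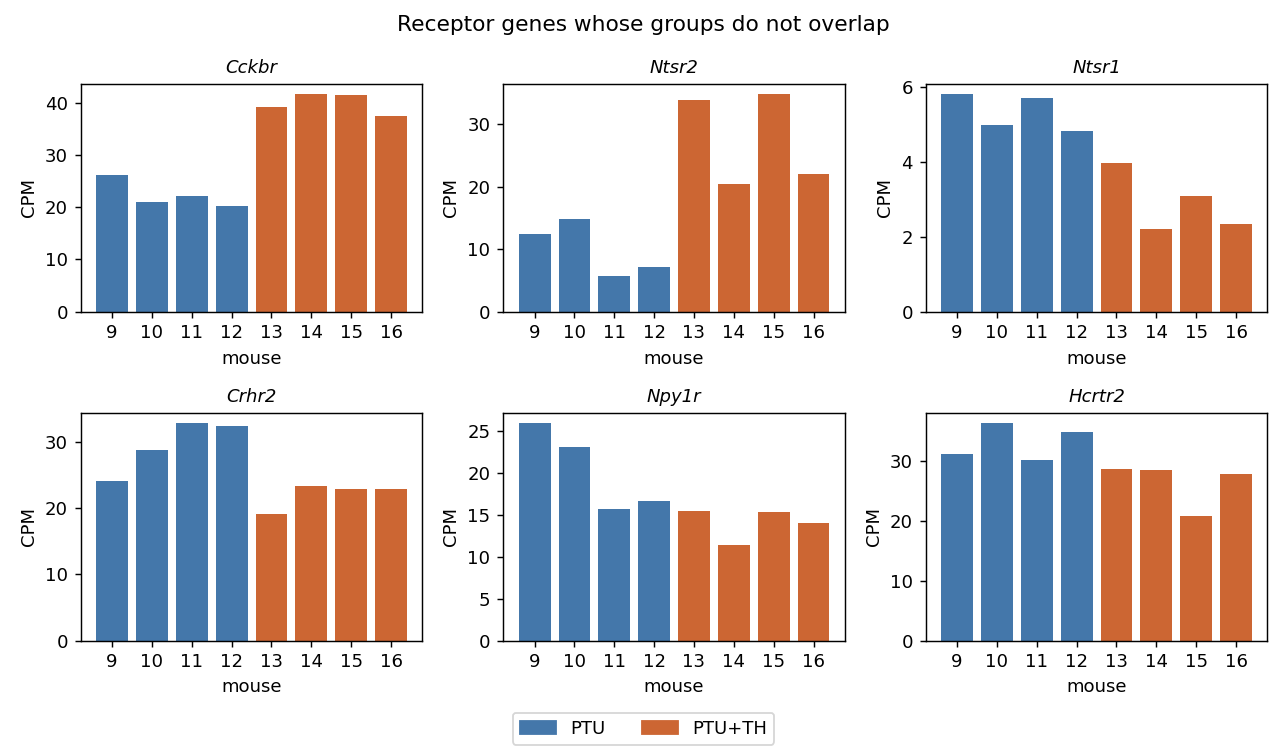
CPM per mouse of the 6 receptor genes whose groups do not overlap (bars from 0, PTU mice 9 to 12 blue, PTU+TH mice 13 to 16 orange). Cckbr and Ntsr2 are higher in every PTU+TH mouse, and Ntsr1, Crhr2, Npy1r and Hcrtr2 are lower in every one.

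Of the 2 corticotropin-releasing hormone (CRH) receptors, Crhr2 encodes the one preferred by the urocortins. Crhr2 (chromosome 6, 55090049 to 55133016) was measured at 24.0, 28.8, 32.8 and 32.4 CPM in PTU against 19.1, 23.3, 22.9 and 22.9 CPM in PTU+TH. The groups were apart by a narrow margin, set by mouse 9, and no call was made (edgeR adjusted p = 0.121, log2 fold change -0.42, SE 0.12). Without mouse 9 it passed (edgeR adjusted p = 0.0291, log2 fold change -0.50). Crhr1, the main CRH receptor of the cortex, lay at 22.9, 28.1, 17.6 and 14.8 CPM in PTU and 32.3, 15.2, 23.2 and 19.3 CPM in PTU+TH, with overlap (log2 fold change 0.10, 95% interval -0.37 to 0.58). Crh, the gene of the ligand, lay at 7.92 to 15.8 CPM in PTU and 9.04 to 13.9 CPM in PTU+TH and was not called (edgeR adjusted p = 0.964). Crhbp, the gene of a protein that binds CRH outside the cell, lay at 33.8 to 51.2 CPM in PTU and 23.2 to 35.1 CPM in PTU+TH (edgeR adjusted p = 0.164, log2 fold change -0.48).

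All 3 neuropeptide Y receptors had log2 fold changes below 0, and none was called. Npy1r, the postsynaptic Y1 receptor, lay at 25.9, 23.1, 15.7 and 16.6 CPM in PTU and 15.5, 11.4, 15.4 and 14.0 CPM in PTU+TH. The groups were apart only narrowly, since mouse 11 of PTU and mouse 13 of PTU+TH were nearly equal (edgeR adjusted p = 0.166, log2 fold change -0.54, SE 0.17). It passed with the excitatory or the astrocyte list as a term (edgeR adjusted p = 0.031 and 0.036). Npy2r, the presynaptic Y2 receptor, lay at 27.8, 22.5, 13.6 and 17.8 CPM in PTU and 14.9, 13.8, 14.0 and 19.0 CPM in PTU+TH, with overlap (edgeR adjusted p = 0.422, log2 fold change -0.41). Npy5r, which shares its region of chromosome 8 with Npy1r, lay at 6.41, 3.27, 2.18 and 3.59 CPM in PTU and 3.75, 3.71, 3.41 and 2.62 CPM in PTU+TH (edgeR adjusted p = 0.878, log2 fold change -0.20 with SE 0.30). In all 3 genes mouse 9 was the highest of the 8 libraries. The ligand gene Npy lay the other way, at 129, 101, 77.7 and 60.6 CPM in PTU and 115, 136, 131 and 128 CPM in PTU+TH, and was not called (edgeR adjusted p = 0.304, log2 fold change 0.47).

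Orexin receptors bind peptides made in the hypothalamus. Hcrtr2 (chromosome 9, 76225880 to 76323856) lay at 31.2, 36.2, 30.2 and 34.8 CPM in PTU and 28.7, 28.5, 20.7 and 27.8 CPM in PTU+TH. Every PTU+TH mouse lay below every PTU mouse, mouse 15 furthest, without a call (edgeR adjusted p = 0.252, log2 fold change -0.33 with SE 0.12). Hcrtr1 lay at 7.69, 7.90, 11.4 and 9.05 CPM in PTU and 18.7, 10.6, 11.8 and 10.2 CPM in PTU+TH, with overlap and with mouse 13 above the rest (edgeR adjusted p = 0.298, log2 fold change 0.51 with SE 0.21). The orexin gene Hcrt lay at 0.05 to 0.29 CPM.

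The opioid receptors, which respond to enkephalins, dynorphins and nociceptin, had 0 called genes of 4. The delta receptor Oprd1 lay at 70.9, 86.7, 107.5 and 95.6 CPM in PTU and 78.6, 101.5, 96.2 and 130.2 CPM in PTU+TH, with overlap (log2 fold change 0.17, 95% interval -0.13 to 0.48). The mu receptor Oprm1 lay at 45.2, 47.1, 53.2 and 56.6 CPM in PTU and 36.0, 44.3, 47.9 and 49.3 CPM in PTU+TH (log2 fold change -0.19, 95% interval -0.41 to 0.04). Only 44.3% of the Oprm1 body is free of other genes, which makes its counts uncertain. The nociceptin receptor Oprl1 lay at 68.2, 51.7, 41.0 and 45.0 CPM in PTU and 50.0, 52.0, 47.1 and 51.9 CPM in PTU+TH, within the range of PTU (95% interval -0.30 to 0.23). The kappa receptor Oprk1 was lower, at 8.96, 5.57, 7.57 and 5.29 CPM in PTU and 6.28, 5.29, 7.81 and 5.90 CPM in PTU+TH, with overlap (edgeR adjusted p = 0.908, log2 fold change -0.12 with SE 0.21). Among the ligand genes, Penk (enkephalins) lay at 68.8, 47.0, 41.9 and 31.2 CPM in PTU and 29.1, 27.7, 32.8 and 33.2 CPM in PTU+TH (edgeR adjusted p = 0.155, log2 fold change -0.62). Pdyn (dynorphins, edgeR adjusted p = 0.603) and Pnoc (nociceptin, edgeR adjusted p = 0.646) were not called either.

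Somatostatin receptors were represented by Sstr1 and Sstr4. Sstr1 lay at 21.7, 13.7, 12.5 and 10.8 CPM in PTU and 12.6, 13.8, 17.7 and 14.5 CPM in PTU+TH, and the group means were 14.7 ± 4.84 and 14.6 ± 2.20 CPM (SD, n = 4 each; log2 fold change -0.01, 95% interval -0.40 to 0.39). Sstr4, whose gene is a single short exon, lay at 11.8, 8.35, 6.19 and 5.77 CPM in PTU and 9.82, 9.42, 11.3 and 8.99 CPM in PTU+TH (log2 fold change 0.30, 95% interval -0.12 to 0.71). In PTU, mouse 9 was the highest and mice 11 and 12 the lowest for both genes, with mouse 10 close to mouse 11 in Sstr1. The PTU+TH mice were closer together. Sstr3 lay at 2.48, 1.88, 0.54 and 0.57 CPM in PTU and 1.18, 1.48, 2.73 and 1.67 CPM in PTU+TH, with overlap (edgeR adjusted p = 0.868, log2 fold change 0.34 with SE 0.48), and Sstr5 had 9 to 42 counts per library. Sstr2 was listed at 0 in all 8 libraries, but its whole body lies inside Slc39a11 on the opposite strand. All 1265 protein-coding genes that lie wholly inside another gene were at 0 in these files, so the 0 of Sstr2 says nothing of its expression. Cort, for the related peptide cortistatin, was not called (edgeR adjusted p = 0.363, log2 fold change 0.35). The ligand gene Sst stood at 192 to 274 CPM in PTU and 204 to 242 CPM in PTU+TH and was not called (edgeR adjusted p = 0.85).

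The receptors for VIP and PACAP held the most counted member. Adcyap1r1, the PACAP receptor, lay at 258, 215, 247 and 250 CPM in PTU and 241, 241, 244 and 259 CPM in PTU+TH. The groups overlapped, and the 95% interval of the log2 fold change, -0.17 to 0.21, was the narrowest of the tested receptors. Vipr1, a receptor for both VIP and PACAP, lay at 6.34, 7.30, 3.61 and 2.67 CPM in PTU and 6.66, 4.19, 6.22 and 3.71 CPM in PTU+TH (log2 fold change 0.05, 95% interval -0.56 to 0.67). Vip lay at 104 to 172 CPM in PTU and 102 to 118 CPM in PTU+TH (edgeR adjusted p = 0.369, log2 fold change -0.29), and Adcyap1, the PACAP gene, at 0.66 to 3.71 CPM.

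Of the tachykinin receptors, Tacr1, the substance P receptor, lay at 20.9, 21.8, 22.1 and 22.0 CPM in PTU and 20.0, 25.8, 16.2 and 20.6 CPM in PTU+TH. The PTU mice were close together, and the PTU+TH mice lay on both sides of them (log2 fold change -0.07, 95% interval -0.34 to 0.19). Tacr3, the neurokinin B receptor, lay at 1.27, 1.73, 0.89 and 0.96 CPM in PTU and 2.45, 3.51, 1.27 and 2.24 CPM in PTU+TH. Its values overlapped through mouse 15, and no call was made (edgeR adjusted p = 0.23, log2 fold change 0.96, SE 0.35). The ligand genes Tac1 and Tac2 were not called (edgeR adjusted p = 0.91 for Tac1 and 0.926 for Tac2).

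Receptors of the remaining families had 0 called genes. Oxtr, the oxytocin receptor, lay at 17.01, 11.0, 8.26 and 8.70 CPM in PTU and 9.40, 9.76, 9.63 and 11.9 CPM in PTU+TH. Mouse 9 was the highest of the 8, and the rest overlapped (log2 fold change -0.15, 95% interval -0.57 to 0.27). The vasopressin receptor gene Avpr1a lies inside Gm48877 on the opposite strand and was listed at 0, as Sstr2 was. The neuromedin B receptor gene Nmbr lay at 10.6, 9.22, 8.16 and 6.21 CPM in PTU and 6.62, 6.39, 5.91 and 7.52 CPM in PTU+TH (edgeR adjusted p = 0.44, log2 fold change -0.37 with SE 0.18). The gastrin-releasing peptide receptor gene Grpr lay at 7.43, 7.19, 2.28 and 4.02 CPM in PTU and 5.52, 4.47, 4.50 and 5.62 CPM in PTU+TH (edgeR adjusted p = 0.972, log2 fold change -0.07 with SE 0.31). Mice 9 and 10 were the highest PTU mice in both genes, and the groups overlapped. Nmb, the ligand gene of Nmbr, lay at 6.74 to 8.21 CPM in PTU and 6.50 to 8.69 CPM in PTU+TH. Grp, the ligand gene of Grpr, has a body wholly within that of another gene, with 0 counts. Mchr1, the receptor for melanin-concentrating hormone, lay at 11.0, 7.04, 6.73 and 5.2 CPM in PTU and 5.69, 7.08, 5.95 and 6.23 CPM in PTU+TH, with mouse 9 highest (edgeR adjusted p = 0.709, log2 fold change -0.26 with SE 0.22). The melanocortin receptor gene Mc4r lay at 3.86, 2.56, 2.38 and 2.19 CPM in PTU and 2.32, 1.13, 2.32 and 2.09 CPM in PTU+TH (edgeR adjusted p = 0.563, log2 fold change -0.49). Trhr, the receptor for thyrotropin-releasing hormone, lay at 1.38, 1.17, 0.89 and 1.22 CPM in PTU and 1.39, 1.00, 1.41 and 1.00 CPM in PTU+TH, with overlap (edgeR adjusted p = 0.988, log2 fold change 0.03 with SE 0.31). Galr2 had 4 to 21 counts.

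Ligand genes of these remaining receptors had 0 called. Trh, for thyrotropin-releasing hormone, had 21, 26, 20 and 23 counts in the PTU mice against 11, 13, 9 and 13 in the PTU+TH mice. All PTU+TH values in CPM lay below all PTU values, without a call (edgeR adjusted p = 0.267, log2 fold change -0.94). Oxt, for oxytocin, had 0 to 6 counts and Pmch, for melanin-concentrating hormone, 0 to 1, and both were dropped by the filter. Gal, for galanin, had 4 to 24 counts and was not called (edgeR adjusted p = 0.562). Pomc and Agrp, for the agonist and the antagonist of melanocortin receptors, were not called (edgeR adjusted p = 0.95 and 0.88). Calca and Calcb, for the CGRP peptides that bind Calcrl with its RAMP partner, were not called either (edgeR adjusted p = 0.979 and 0.804).

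Calcrl, which pairs with RAMP proteins to form receptors for CGRP and adrenomedullin and is abundant in endothelium, lay at 1.31, 3.24, 1.83 and 1.27 CPM in PTU and 1.22, 1.31, 4.77 and 2.00 CPM in PTU+TH. Its highest value in PTU was in mouse 10 and its highest in PTU+TH was in mouse 15. The endothelial gene Cldn5 was also highest in these mice within each group, at 16.9, 69.1, 11.4 and 7.17 CPM in PTU and 30.1, 10.5, 40.2 and 12.9 CPM in PTU+TH. The 6 endothelial genes summed to 34.9 to 152 CPM in PTU and 34.0 to 110 CPM in PTU+TH with 0 called, and their part in the Calcrl values was not tested. Calcrl was not called (edgeR adjusted p = 0.9).

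The filter dropped 8 members. In the fit without a filter 36 of the 38 members were tested, all but Sstr2 and Avpr1a, and 1 (Cckbr) was called. Beside Sstr2, Avpr1a and Cckar, the dropped members were Galr1 with 1 to 21 counts per library, Galr3 with 1 to 5, Mc3r with 0 to 10, Ghrhr with 0 to 4 and Calcr with 2 to 24. Galr1, Galr3 and Calcr were counted in all 8 libraries. Mc3r had 10 and 6 counts in PTU mice 10 and 11, 3 in PTU+TH mouse 14 and 0 in the other 5 libraries. Calcr gave 24, 4, 19 and 9 counts in the PTU mice against 2, 2, 5 and 12 in the PTU+TH mice, and the groups overlapped.

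Peptide receptors outside the 38, a list of 41 genes that runs from relaxin to apelin receptors, had 23 tested genes, of which 0 rose and 2 fell, against 1.49% and 0.634% of all tested genes (median log2 fold change -0.23, all tested genes -0.01). Gipr, the receptor for the incretin GIP, fell from 15.6, 25.1, 23.1 and 25.9 CPM in PTU to 10.1, 11.3, 7.81 and 11.9 CPM in PTU+TH. Its groups did not overlap, and its log2 fold change was -1.12 (edgeR adjusted p = 0.00498). Npsr1, the receptor for neuropeptide S, fell from 10.9, 12.0, 12.4 and 12.8 CPM to 4.17, 6.12, 6.45 and 7.47 CPM (edgeR adjusted p = 0.0109, log2 fold change -0.99). Each kept its call under 18 of 19 alternatives and lost it with mice 15 and 16 left out, which leaves 2 PTU+TH mice (edgeR adjusted p = 0.102 for Gipr and 0.058 for Npsr1). The log2 fold changes were then -1.06 and -1.22.

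Of the 6 accessory genes, 1 was called, against 2.12% of all tested genes. Mrap2, which encodes a membrane partner of melanocortin and other peptide receptors, fell from 18.8, 21.9, 21.5 and 22.1 CPM in PTU to 13.0, 16.6, 12.3 and 13.6 CPM in PTU+TH (edgeR adjusted p = 0.0285, log2 fold change -0.60). It lost its call under 8 of 19 alternatives, among them the fits without PTU mouse 10, 11 or 12 and without PTU+TH mouse 13, 15 or 16 (edgeR adjusted p = 0.0607 to 0.106). Over the 19 alternatives (edgeR, DESeq2 and voom fits) its adjusted p reached 0.341, with log2 fold changes from -0.70 to -0.51. Of the 12 genes of peptide processing and release, 1 was called, beside the same 2.12%. Mme, which encodes neprilysin, a surface protease that degrades neuropeptides, rose from 19.6, 21.6, 26.4 and 29.8 CPM in PTU to 45.2, 48.9, 40.6 and 44.3 CPM in PTU+TH. The groups did not overlap, and the rise was 1.84-fold (edgeR adjusted p = 0.00328, log2 fold change 0.88). With mice 15 and 16 left out the log2 fold change was 0.95 and the call was lost (edgeR adjusted p = 0.058). Of 33 ligand genes 20 were tested and 0 were called, and of 17 tested genes of G protein coupling and desensitisation 0 were called.

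**Figure D5:**
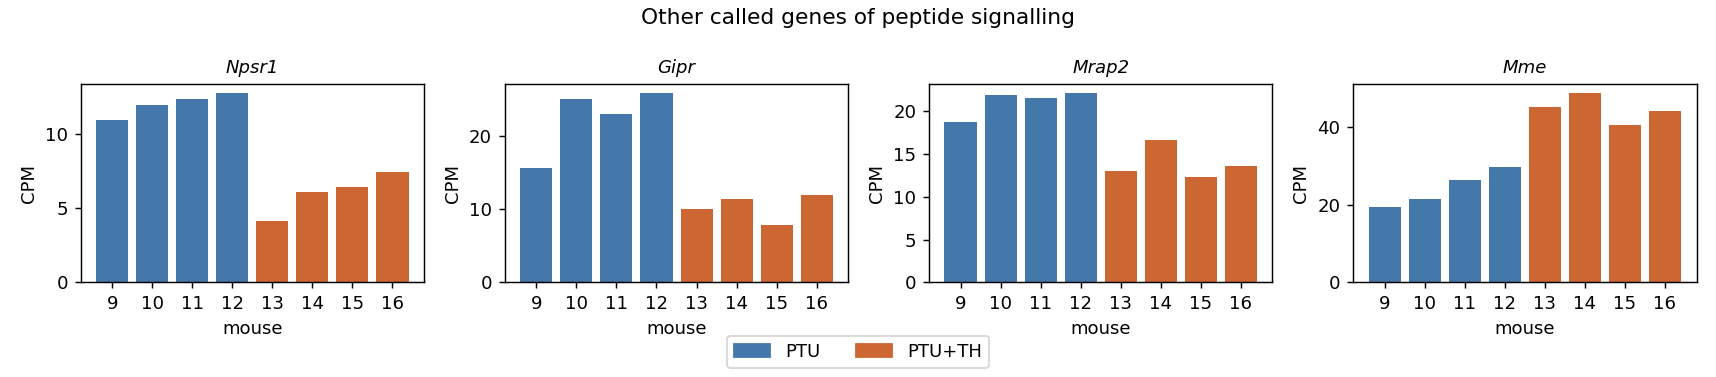
CPM per mouse of the 4 called genes among other peptide receptors, accessory proteins and peptide processing genes (bars from 0, PTU mice 9 to 12 blue, PTU+TH mice 13 to 16 orange). Npsr1, Gipr and Mrap2 are lower and Mme is higher in every PTU+TH mouse.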

How the data were processed

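Nuclear RNA of sorted cortical GABAergic nuclei was sequenced, 1 library per mouse, from cDNA made with SMART-Seq v4 and Nextera XT, single end, per the labels' protocols. The deposited files hold raw counts per gene symbol. Bowtie2 2.5.3 and the builds mm10 and GRCm38 are named in the submitters' processing notes, and the counting program, annotation, strand and intron handling are not given in the sources used here. All 55341 symbols are in GENCODE M21 (GRCm38), which gave positions. All 1265 protein-coding genes inside another gene were at 0, against 21.5% of 11727 that share no base. Among them, all 818 that lie only inside genes of the opposite strand were at 0. This is the pattern of counting over whole gene bodies without regard to strand.

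Counts were tested with edgeR 4.0.16 (R 4.3.3): filterByExpr, TMM scaling, robust quasi-likelihood fit, group as the only term, two-sided p adjusted by Benjamini-Hochberg over 17355 genes. CPM, means, SD and intervals were computed here. Alternatives used DESeq2 1.42.0, limma 3.58.1 voom, other scalings, filters, covariates and fewer libraries. Within groups, pairs of libraries differed by a chi-square per degree of freedom of 8.38 to 72.6, so none were copies. The scripts were tested on simulated data. Named were all called members, members at 1 CPM or more and members with groups apart, and from the lists of other peptide receptors, ligands, accessory proteins, G protein coupling and processing all called genes and ligands of members described. A term for the astrocyte list was added after seeing the data. Members and lists were chosen with earlier results of these data known.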

Additional observations from a re-analysis of the deposited data

Results flagged for a closer look

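In 4 of 68 sets of 4 values (34 genes in 2 groups) a single mouse lay far from the other 3 of its group, where chance gives about 5% of sets, or 3.4. In parentheses stands that mouse's gap to its nearest neighbour divided by the whole range of the 4 values. Sstr5 reached 1.09 CPM in PTU mouse 9, with 0.39 to 0.45 CPM in the other 3 (0.917). Crhr2 had 19.1 CPM in PTU+TH mouse 13, with the others at 22.9 to 23.3 CPM (0.901). Oxtr had 11.9 CPM in PTU+TH mouse 16, with the others at 9.40 to 9.76 CPM (0.855). Hcrtr2 had 20.7 CPM in PTU+TH mouse 15, with the others at 27.8 to 28.7 CPM (0.889).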

How the results depend on the processing

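No paired analysis was possible because no mouse number occurs in both groups. Against 2 called receptors, 4 were called with the excitatory or the astrocyte list as a term (Npy1r, Cckbr, Ntsr1 and Ntsr2) and 1 (Cckbr) with library totals only, without a filter and with mice 15 and 16, which lack Y-linked counts, left out. DESeq2 called 3 (Cckbr, Ntsr1 and Ntsr2). Leaving out a mouse gave 1 to 2, always with Cckbr. The second was Ntsr2 without mouse 10 or 14, Crhr2 (lower) without mouse 9 and Ntsr1 (lower) without mouse 13. The astrocyte term was chosen after seeing the data. Over all genes, 368 calls became 748 with DESeq2 and 642 with the mouse set (9, 10, 13, 14 against 11, 12, 15, 16) as a term. They became 570 with the excitatory list, 489 with the astrocyte list and 58 with mice 15 and 16 left out, which leaves 2 PTU+TH mice. Leaving out 1 mouse gave 182 (PTU+TH mouse 15) to 499 (PTU mouse 9). The cause of the larger counts was not tested. Cckbr, Ntsr2, Gipr, Npsr1, Mrap2 and Mme kept their direction under all 19 alternatives.

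Neither called receptor changed sign, and some uncalled ones did, among them Sstr5, Sstr3 and Calcrl, with log2 fold changes of 0.55, 0.34 and 0.27 over all 8 libraries. Sstr1 was at 0.0097 with upper quartile scaling, 0.0104 with voom, 0.014 with the mouse set and 0.0084 with the excitatory list. Grpr was at 0.018 with voom and 0.037 with the mouse set, and Trhr at -0.014 with the astrocyte list. Without mice 15 and 16, Sstr3 was at -0.056, Adcyap1r1 at -0.0071, Tacr1 at 0.078 and Calcrl at -0.59. Leaving out a mouse gave log2 fold changes of -0.13 to 0.25 for Sstr1, -0.027 to 1.04 for Sstr5, -0.39 to 0.17 for Npy5r, -0.15 to 0.30 for Vipr1, -0.025 to 0.059 for Adcyap1r1, -0.20 to 0.029 for Tacr1, -0.23 to 0.048 for Oprk1, -0.13 to 0.13 for Oprl1, -0.12 to 0.29 for Crhr1, -0.27 to 0.13 for Oxtr, -0.31 to 0.15 for Grpr, -0.072 to 0.13 for Trhr and -0.35 to 0.66 for Calcrl. Scaling moved the median of all genes to between -0.028 and 0.0063.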

Other observations

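Of the 17 tested genes of G protein coupling and desensitisation (median log2 fold change 0.08), 2 had higher values in every PTU+TH mouse, against 4.68% of all tested genes, and these were Kcnj9 and Kcnj6. Kcnj6 and Kcnj9 encode subunits of the potassium channels that Gi and Go proteins open. Kcnj9 lay at 62.7, 55.8, 47.9 and 48.8 CPM in PTU and 72.2, 66.6, 82.5 and 67.9 CPM in PTU+TH, with all PTU+TH mice above all PTU mice (edgeR adjusted p = 0.0627, log2 fold change 0.43). Kcnj6 lay at 57.8, 77.5, 106.5 and 96.3 CPM in PTU and 110.6, 118.6, 137.2 and 156 CPM in PTU+TH, also without overlap (edgeR adjusted p = 0.101, log2 fold change 0.63). Kcnj3 overlapped between the groups (edgeR adjusted p = 0.465, log2 fold change 0.30). None of the 3 was called.

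Of the 23 tested peptide receptors outside the 38 members, 6 had lower values in every PTU+TH mouse (4.03% of all tested genes) and 1 had higher values in every one (4.68%). The latter, the parathyroid hormone receptor gene Pth1r, lay at 9.87, 9.60, 8.81 and 8.92 CPM in PTU and 10.2, 11.4, 10.8 and 10.5 CPM in PTU+TH (edgeR adjusted p = 0.59, log2 fold change 0.21). Of the 6, Gipr and Npsr1 were called, and Qrfpr, an RFamide peptide receptor gene, had a log2 fold change of -0.29 without a call. Vipr2, another VIP receptor, lay at 3.82, 3.46, 2.52 and 4.72 CPM in PTU and 1.98, 2.06, 2.45 and 1.71 CPM in PTU+TH (edgeR adjusted p = 0.13, log2 fold change -0.82). Prokr2, a prokineticin receptor gene, and Agtr2, an angiotensin receptor gene, were at -0.87 (edgeR adjusted p = 0.117) and -0.66 (0.178) on the log2 scale. Pcsk1, which encodes a protease that cuts peptide precursors, lay at 14.7 to 23.6 CPM in PTU and 11.8 to 13.4 CPM in PTU+TH (edgeR adjusted p = 0.0968). These 9 genes were named after their values were seen.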
